A study of Mus musculus with 15 samples.

Results

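Transcripts of 10 genes for integrin chains and other adhesion molecules were followed: the integrin α chains Itgal, Itga4, Itgae and Itgav, the β chains Itgb1, Itgb2 and Itgb7, and the adhesion molecules Icam1, Cd44 and Cd2. They were taken by gene symbol, and all 10 were found among the 17493 genes of the tables and passed the filter on low counts. The cells were CD8+ T lymphocytes from the spleen and lymph nodes of female OT-I mice (C57BL/6-Tg(TcraTcrb)1100Mjb/Crl), which carry a transgenic T cell receptor for an ovalbumin peptide on MHC class I, so all 15 libraries share that transgene. They fall into 5 groups of 3 libraries: untreated cells at 0 h, cells kept for 8 h or 22 h with immunofilaments (IF), and cells kept for 8 h or 22 h with dendritic cells (DC). Immunofilaments are synthetic polymer filaments, here carrying peptide-loaded MHC and interleukin-2, and were used at 5 ng/ml. The sample titles call them IF-pMHC(SIIT)/IL-2, and SIIT are the first letters of the peptide used on the dendritic cells. The dendritic cells were grown with Flt3 ligand, loaded with SIITFEKL, which is an altered form of that peptide, and added at 20000 per well to 50000 T cells. Viable CD8+ cells negative for CD103, the protein made from Itgae, were sorted before RNA extraction, as the protocol text that all samples share states. It does not say separately whether the untreated cells also passed through that gate. The labels give no age, and the titles end in Don1 to Don3 in every group, an abbreviation that they do not spell out. Whether the replicates came from separate animals is not stated, so p-values measure the spread between these libraries, which may be technical.

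Integrins are paired receptors, each made of an α and a β chain, that hold cells to other cells and to matrix. LFA-1 (Itgal with Itgb2) binds ICAM-1 and holds a T cell to the cell that presents antigen. The α4 chain pairs with β1 (VLA-4, a receptor for VCAM-1 and fibronectin) or with β7, which guides lymphocytes to the gut through MAdCAM-1, while αE pairs with β7 to bind E-cadherin on epithelium. CD2 binds CD48 on mouse cells at the contact between both cells, and CD44 is the main receptor for hyaluronan and rises on the surface of antigen-experienced T cells. T cell receptor signals also switch integrins to a high-affinity state without new transcription, a step that RNA counts do not show.

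The libraries held 2892874 to 19806730 counts in genes. All 9 T cell markers that the tables list were detected in every library, with a summed level of 10093 to 10923 CPM (counts normalised to TMM-scaled library totals) in the unstimulated libraries and 4742 to 7307 CPM in the 12 stimulated ones. Of 21 dendritic cell markers, 12 to 21 were detected per library. Their summed level was 676 to 1561 CPM in unstimulated cells, 219 to 482 CPM in IF 8 h, 860 to 1249 CPM in DC 8 h, 377 to 635 CPM in IF 22 h and 472 to 646 CPM in DC 22 h. Fscn1, a marker of mature dendritic cells, averaged 2.31 CPM in unstimulated cells, 0.49 in IF 8 h, 142 in DC 8 h, 23.7 in IF 22 h and 85.1 in DC 22 h. Xcr1 and Cst3, on the same list, were instead highest in unstimulated cells, at 24.1 and 221 CPM. They averaged 2.86 and 145 CPM in DC 8 h and 0.198 and 97.3 CPM in DC 22 h. Other lists were low: per library, B cell markers summed to at most 42.3 CPM, NK cell markers to 104.7, macrophage, monocyte and neutrophil markers to 24.4, CD4 and regulatory T cell markers to 10.3 and erythroid and platelet markers to 4.78. IF 22 h replicates 2 and 3 stood apart by the share of their counts in mitochondrial ribosomal RNA, 0.179% and 0.146% against 1.82% to 4.49% in the other libraries, so the IF 22 h calls of named genes that were lost without them are given beside each result.

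Itgb2, Itgb7 and Cd2 fell in all 4 stimulated groups. Against unstimulated cells, 5 of the 10 genes fell and 0 rose at IF 8 h, beside 4.72% of all 10831 tested genes called lower and 3.04% called higher. At DC 8 h 4 fell and 1, Icam1, rose, beside 4.07% lower and 2.75% higher over all genes. At IF 22 h 5 fell and 1, Itgav, rose, beside 3.44% and 2.63%. At DC 22 h 4 fell and 0 rose, beside 4.35% and 3.41%. The median log2 fold change of the 10 genes was −0.47, −0.31, −0.28 and −0.46 in that order, beside 0.02, 0.04, 0.01 and 0.04 over all tested genes. The 10 genes were chosen with earlier results of these data known, so these counts are not a test of the set. A call here is an adjusted p under 0.05 in edgeR's quasi-likelihood test, adjusted by Benjamini-Hochberg over all tested genes, and all 4 comparisons share the 3 unstimulated libraries. In the 2 comparisons with 0 genes rising, 0 members were higher at an unadjusted p under 0.05 and 0 by DESeq2. With library size alone, however, Icam1 was called higher at DC 22 h (log2 fold change 0.65, edgeR adjusted p = 0.0235). Itga4, Itgb1 and Cd44 were called in none of the 9 comparisons made. In bulk RNA, fewer cells of a type and less RNA per cell cannot be told apart. The summed T cell markers were also lower in all 4 stimulated groups, and their part in the lower values was not tested. The summed macrophage, monocyte and neutrophil markers were lower too, at 0.178 to 4.64 CPM in the 12 stimulated libraries against 11.02 to 24.4 CPM in the unstimulated ones, and this was not tested either.

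**Figure D1:**
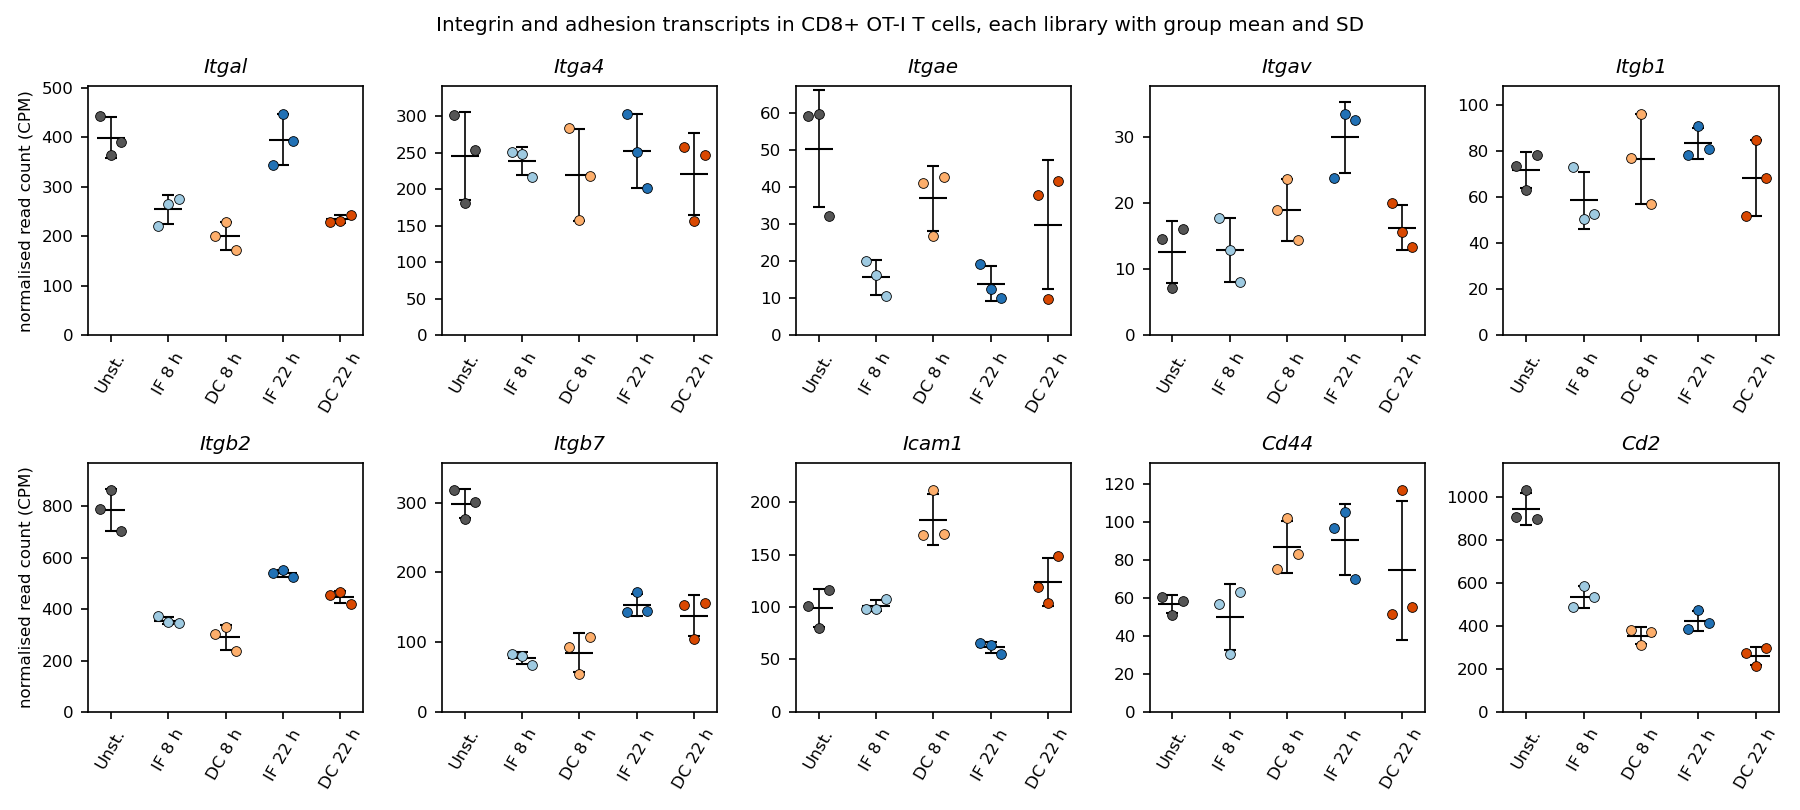
Normalised read count (CPM, linear axis from 0) of the 10 transcripts in each library, by group, with the group mean and SD (n = 3). Itgb2, Itgb7 and Cd2 have all 12 stimulated libraries below the 3 unstimulated ones, while Icam1 is highest in DC 8 h and lowest in IF 22 h.

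**Figure D2:**
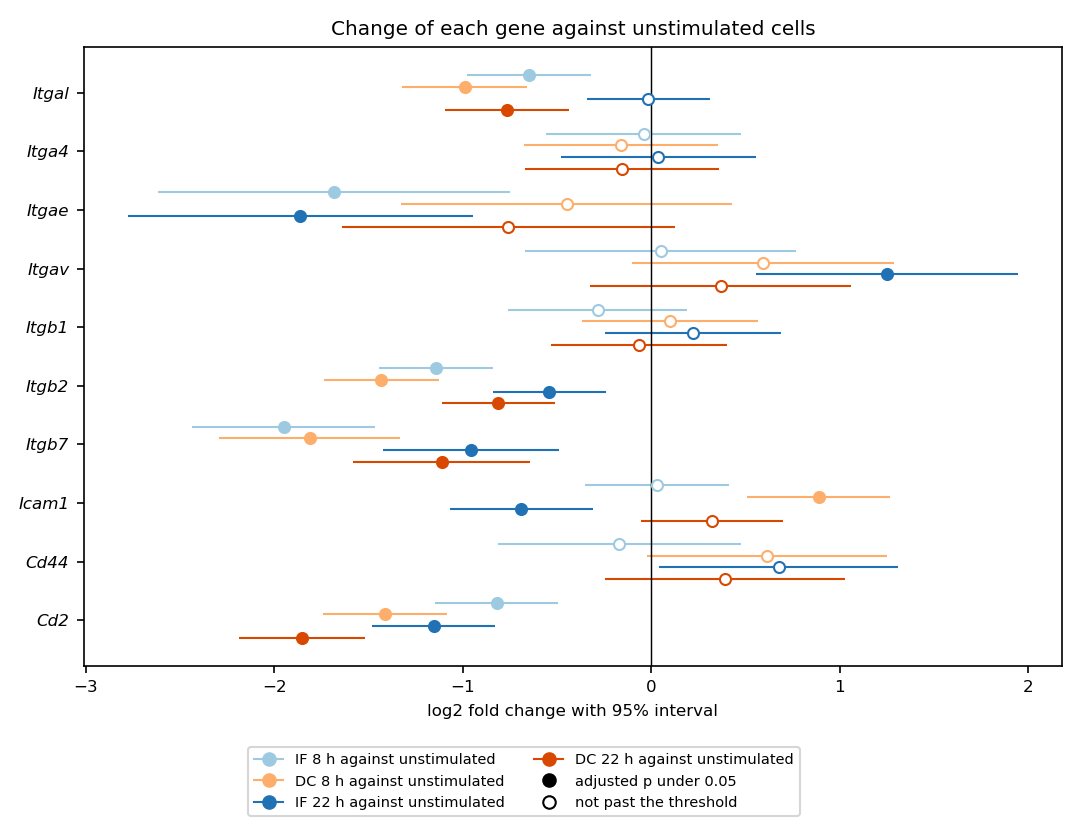
Log2 fold change of each transcript against unstimulated cells with its 95% interval, for the 4 stimulated groups; filled points have an adjusted p under 0.05 and open points do not. Itgb2, Itgb7 and Cd2 lie below 0 with filled points in all 4 groups, from −0.54 for Itgb2 at IF 22 h to −1.95 for Itgb7 at IF 8 h.

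Promoter sequences were matched by symbol for 6 of the 10 genes (Itga4, Itgav, Itgb1, Itgb7, Icam1 and Cd44), as the 250 bases before the RefSeq transcription start in GRCm38.p6, and 3 are shown because their transcripts moved differently: Icam1 was the one gene that rose with dendritic cells, Itgb7 had the largest fall at 8 h with immunofilaments, and Itga4 was called nowhere. Each runs 5′ to 3′ on the gene's own strand, and capitals mark letters that match one of the motifs searched. The Icam1 window is chr9:21015690-21015939 on the plus strand, Itgb7 is chr15:102231936-102232185 on the minus strand, and Itga4 is chr2:79255176-79255425 on the plus strand.
Icam1: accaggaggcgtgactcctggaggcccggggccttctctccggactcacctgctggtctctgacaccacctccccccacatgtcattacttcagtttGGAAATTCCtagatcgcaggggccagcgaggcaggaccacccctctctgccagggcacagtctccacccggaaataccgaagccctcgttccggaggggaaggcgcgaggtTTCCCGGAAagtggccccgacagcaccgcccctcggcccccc
Itgb7: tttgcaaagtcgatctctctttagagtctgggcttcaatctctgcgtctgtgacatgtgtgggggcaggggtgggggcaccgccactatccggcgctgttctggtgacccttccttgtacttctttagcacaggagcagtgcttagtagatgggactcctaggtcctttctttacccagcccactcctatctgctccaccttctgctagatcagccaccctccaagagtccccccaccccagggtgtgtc
Itga4: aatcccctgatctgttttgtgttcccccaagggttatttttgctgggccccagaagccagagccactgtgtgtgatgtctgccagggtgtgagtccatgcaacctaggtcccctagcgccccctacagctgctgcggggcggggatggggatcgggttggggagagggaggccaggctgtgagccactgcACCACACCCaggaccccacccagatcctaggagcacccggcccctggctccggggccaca
In all, 6 letter patterns were searched on both strands: GGAANNTCC (κB-like), TGANTCA (AP-1), TGTGGT (RUNX), CGGAAG (ETS), TTCNNNGAA (STAT) and CCACACCC (KLF). Icam1 held GGAAATTCC, which reads the same on both strands, 153 bases before the start, and TTCCCGGAA 42 bases before it. Of 32851 mouse windows of this length, 3.59% held the κB-like letters and 7.02% the STAT letters. Itga4 held the RUNX letters on the reverse strand 60 bases before the start, overlapping the KLF letters at 59 bases, which stood in 14.0% and 3.20% of windows. Itgav held the ETS letters, found in 13.6% of windows. The AP-1 letters, found in 6.75% of windows, were in none of the 6 windows, and Itgb7, Itgb1 and Cd44 held none of the 6 patterns. A match is a description of the letters only.

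Both LFA-1 chains fell at 8 h with either stimulus, and at 22 h Itgal differed between the stimuli. Itgal (chr7:127296260-127335138, plus strand), the αL chain, stood at 444, 364 and 390.3 CPM in unstimulated replicates 1 to 3. It stood at 222, 266 and 276 CPM in IF 8 h and at 201, 229 and 172 CPM in DC 8 h. At 22 h it was 344, 447 and 393 CPM with immunofilaments and 229, 232 and 244 CPM with dendritic cells. All 9 libraries of IF 8 h, DC 8 h and DC 22 h lay below all 3 unstimulated libraries, while IF 22 h overlapped the unstimulated range. Itgal fell, with a log2 fold change of −0.65 at IF 8 h (SE 0.16, edgeR adjusted p = 0.0179), −0.99 at DC 8 h (SE 0.16, edgeR adjusted p = 0.00107) and −0.77 at DC 22 h (SE 0.16, edgeR adjusted p = 0.00588). At IF 22 h the log2 fold change of Itgal was −0.02, with a 95% interval from −0.34 to 0.31. When libraries were scaled by size alone, the edgeR adjusted p of Itgal became 0.0868 at IF 8 h (log2 fold change −0.41) and 0.0574 at DC 22 h (−0.43). Over all alternatives it ranged from 0.000671 to 0.0868 at IF 8 h, where leaving out unstimulated replicate 1 (0.0724) or IF 8 h replicate 1 (0.0784) also ended the call, and from 2.58e-05 to 0.0574 at DC 22 h.

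Itgb2 (chr10:77530252-77565708, plus strand), the β2 chain shared by LFA-1 and the integrins of myeloid cells, stood at 791, 863 and 703 CPM in unstimulated cells. It stood at 372, 349 and 345 CPM in IF 8 h and at 304, 332 and 237 CPM in DC 8 h. At 22 h it was 540.2, 553 and 526 CPM with immunofilaments and 456, 465 and 421 CPM with dendritic cells. The 8 h libraries were the lowest, the 22 h libraries lay between them and the unstimulated ones, and neither set overlapped the other. Itgb2 fell, with a log2 fold change of −1.14 at IF 8 h (SE 0.14, edgeR adjusted p = 1.09e-04), −1.43 at DC 8 h (SE 0.14, edgeR adjusted p = 1.66e-05), −0.54 at IF 22 h (SE 0.14, edgeR adjusted p = 0.0314) and −0.81 at DC 22 h (SE 0.14, edgeR adjusted p = 0.00213). The macrophage, monocyte and neutrophil markers, from cells that also carry β2 integrins, were highest in the unstimulated libraries as given above. Of 9 such markers, 6 to 7 were detected there and 1 to 5 in the stimulated libraries, and their part in the Itgb2 values was not tested. The calls at IF 8 h, DC 8 h and DC 22 h held under every alternative. The IF 22 h call of Itgb2 had an edgeR adjusted p from 0.00161 to 0.34 over its alternatives and was lost with library size alone (0.154), with no filter on low counts (0.0735), and without unstimulated replicate 1 (0.0857) or 2 (0.136), IF 22 h replicate 2 (0.0886) or 3 (0.125), or IF 22 h replicates 2 and 3 together (0.34, at −0.54 on the log2 scale).

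Itgb7 (chr15:102215995-102231944, minus strand), the β7 chain of gut-homing α4β7 and of αEβ7, stood at 318, 276 and 300.3 CPM in unstimulated cells. It stood at 83.0, 80.6 and 67.8 CPM in IF 8 h and at 92.5, 54.0 and 108 CPM in DC 8 h. At 22 h it was 143, 172 and 145 CPM with immunofilaments and 153, 104 and 157 CPM with dendritic cells. No stimulated library reached the unstimulated range, and IF 22 h lay wholly above IF 8 h, whereas DC 22 h overlapped DC 8 h at 104 and 108 CPM. Itgb7 fell, with a log2 fold change of −1.95 at IF 8 h (SE 0.23, edgeR adjusted p = 7.22e-05), −1.81 at DC 8 h (SE 0.23, edgeR adjusted p = 1.39e-04), −0.96 at IF 22 h (SE 0.22, edgeR adjusted p = 0.0169) and −1.11 at DC 22 h (SE 0.22, edgeR adjusted p = 0.00527). The IF 22 h call of Itgb7 had an edgeR adjusted p from 0.000455 to 0.199 over its alternatives and was lost on leaving out unstimulated replicate 1 (0.0553), IF 22 h replicate 3 (0.0743) or IF 22 h replicates 2 and 3 as a pair (0.199, at −1.06 on the log2 scale).

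Itgae (chr11:73090583-73147446, plus strand) encodes αE, the CD103 protein that the sort selected against, so its transcript was read in cells sorted for lacking the protein. If the untreated cells were not sorted this way, the sort and the stimulus cannot be told apart in the Itgae comparisons with them. It stood at 59.3, 59.8 and 32.1 CPM in unstimulated cells and at 20.0, 16.2 and 10.7 CPM in IF 8 h. It stood at 41.2, 27.0 and 42.9 CPM in DC 8 h, at 19.4, 12.4 and 10.2 CPM in IF 22 h and at 37.9, 9.84 and 41.7 CPM in DC 22 h. All 6 IF libraries lay below the unstimulated ones, while DC 22 h replicate 2 lay below even these and far below the other two of its group. Itgae fell, with a log2 fold change of −1.68 at IF 8 h (SE 0.44, edgeR adjusted p = 0.0288) and −1.86 at IF 22 h (SE 0.43, edgeR adjusted p = 0.0174). The log2 fold change of Itgae was −0.45 at DC 8 h (edgeR adjusted p = 0.592) and −0.76 at DC 22 h (edgeR adjusted p = 0.298). The summed dendritic cell markers given above were also lower in all IF libraries than in the unstimulated ones. Their part in the Itgae values was not tested. Neither IF call of Itgae was firm: the edgeR adjusted p ranged from 3.01e-06 to 0.118 over the alternatives at IF 8 h and from 9.17e-08 to 0.444 at IF 22 h. The IF 8 h call was lost when any of these was left out: unstimulated replicate 1 (0.0833) or 2 (0.0905), or IF 8 h replicate 1 (0.0547), 2 (0.0712) or 3 (0.118). The IF 22 h call was lost on leaving out unstimulated replicate 1 (0.0594) or 2 (0.0661), IF 22 h replicate 2 (0.0763) or 3 (0.0926), or both of the latter (0.444, at −1.38).

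Neither α4 nor β1 transcripts were called in any comparison. Itga4 (chr2:79255426-79333123, plus strand), the α4 chain, ranged from 156 to 303 CPM over all 15 libraries, with group means from 219 ± 63.2 CPM (SD, n = 3) in DC 8 h to 252 ± 50.9 CPM (SD, n = 3) in IF 22 h. Its 4 log2 fold changes against unstimulated cells lay between −0.16 and 0.04, each with an SE of 0.24, and the 95% interval at DC 8 h ran from −0.68 to 0.35. Replicate 2 was the lowest Itga4 library in the unstimulated, DC 8 h and DC 22 h groups, at 181, 157 and 156 CPM. Itgb1 (chr8:128685654-128733200, plus strand), the β1 chain that pairs with α4 in VLA-4, stood at 71.6 ± 7.83 CPM (SD, n = 3) in unstimulated cells. Its group means were 58.6 ± 12.5 CPM in IF 8 h, 76.7 ± 19.6 CPM in DC 8 h, 83.5 ± 6.72 CPM in IF 22 h and 68.4 ± 16.6 CPM in DC 22 h (SD, n = 3 each). No stimulated group of Itga4 or Itgb1 stood clear of the unstimulated range. In the GENCODE vM21 annotation Itga4 shares 1124 exonic bases with Cerkl, on the opposite strand, and Cerkl had at most 6 counts in any library.

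Itgav (chr2:83724397-83806916, plus strand), the αV chain of integrins that bind vitronectin and latent TGF-β, was the least counted of the 10, with 30 to 640 counts per library. It stood at 14.7, 7.23 and 16.1 CPM in unstimulated cells, 17.8, 12.9 and 8.04 CPM in IF 8 h and 19.0, 23.7 and 14.4 CPM in DC 8 h. At 22 h it was 23.8, 33.6 and 32.7 CPM with immunofilaments and 20.0, 15.6 and 13.3 CPM with dendritic cells. The 3 IF 22 h libraries lay above the other 12, with DC 8 h replicate 2 the nearest. Itgav rose by 1.25 on the log2 scale at IF 22 h (SE 0.33, edgeR adjusted p = 0.0316). Over the alternatives the edgeR adjusted p of Itgav ranged from 0.00293 to 0.496, and the call was lost on leaving out unstimulated replicate 1 (0.0628) or 2 (0.136), IF 22 h replicate 2 (0.111) or 3 (0.112), or this last pair (0.496, at 0.91 on the log2 scale). Itgav shares 634 exonic bases with Gm13684 on the opposite strand, and the use of strand in counting is not given in the sources used here.

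Icam1 (chr9:21015985-21028817, plus strand) encodes ICAM-1, the ligand of LFA-1, which T cells and dendritic cells both carry. It stood at 101, 80.4 and 116 CPM in unstimulated cells and at 98.1, 98.1 and 107 CPM in IF 8 h. It stood at 169, 211 and 169.7 CPM in DC 8 h, at 65.2, 63.9 and 55.2 CPM in IF 22 h and at 119, 104 and 149 CPM in DC 22 h. DC 8 h lay wholly above the unstimulated libraries and IF 22 h wholly below them, while IF 8 h and DC 22 h overlapped them. Icam1 rose by 0.89 on the log2 scale at DC 8 h (SE 0.18, edgeR adjusted p = 0.00597), a call that held under every alternative. It fell at IF 22 h, at −0.69 (SE 0.18, edgeR adjusted p = 0.0307), and was 0.03 at IF 8 h and 0.32 at DC 22 h (edgeR adjusted p = 0.944 and 0.299). The IF 22 h call had an edgeR adjusted p from 0.00375 to 0.432 over its alternatives and was lost with library size alone (0.108) or on leaving out unstimulated replicate 1 (0.0854) or 3 (0.135), IF 22 h replicate 2 (0.0838) or 3 (0.14), or this last pair (0.432, at −0.60). With library size alone Icam1 was also called higher at DC 22 h (0.65, edgeR adjusted p = 0.0235). Icam1 shares 511 exonic bases with the antisense gene Gm47079.

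Dendritic cell markers moved with Icam1 in part. Their summed level was 860 to 1249 CPM in DC 8 h and 219 to 482 CPM in IF 8 h, with 18 to 19 and 12 to 16 of 21 markers detected, and Icam1 was also higher in DC 8 h. At 22 h the sums overlapped, at 472 to 646 CPM with dendritic cells and 377 to 635 CPM with immunofilaments, while Fscn1 averaged 85.1 and 23.7 CPM. Single markers of the list went both ways at 22 h. With dendritic cells and immunofilaments, H2-Eb1 averaged 122 and 103 CPM, but Itgax 3.95 and 20.0, Xcr1 0.20 and 1.23 and H2-Ab1 74.3 and 84.5. Zbtb46, which defines conventional dendritic cells, averaged 1.77 CPM in DC 8 h, 0.57 in DC 22 h and 0.29 in IF 22 h, where no dendritic cells were added, and was at 0 in all unstimulated and IF 8 h libraries. Unstimulated replicate 3 had the highest marker sum, 1561 CPM, with Icam1 at 116 CPM, and the part of dendritic cell RNA in the Icam1 values was not tested.

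**Figure D3:**
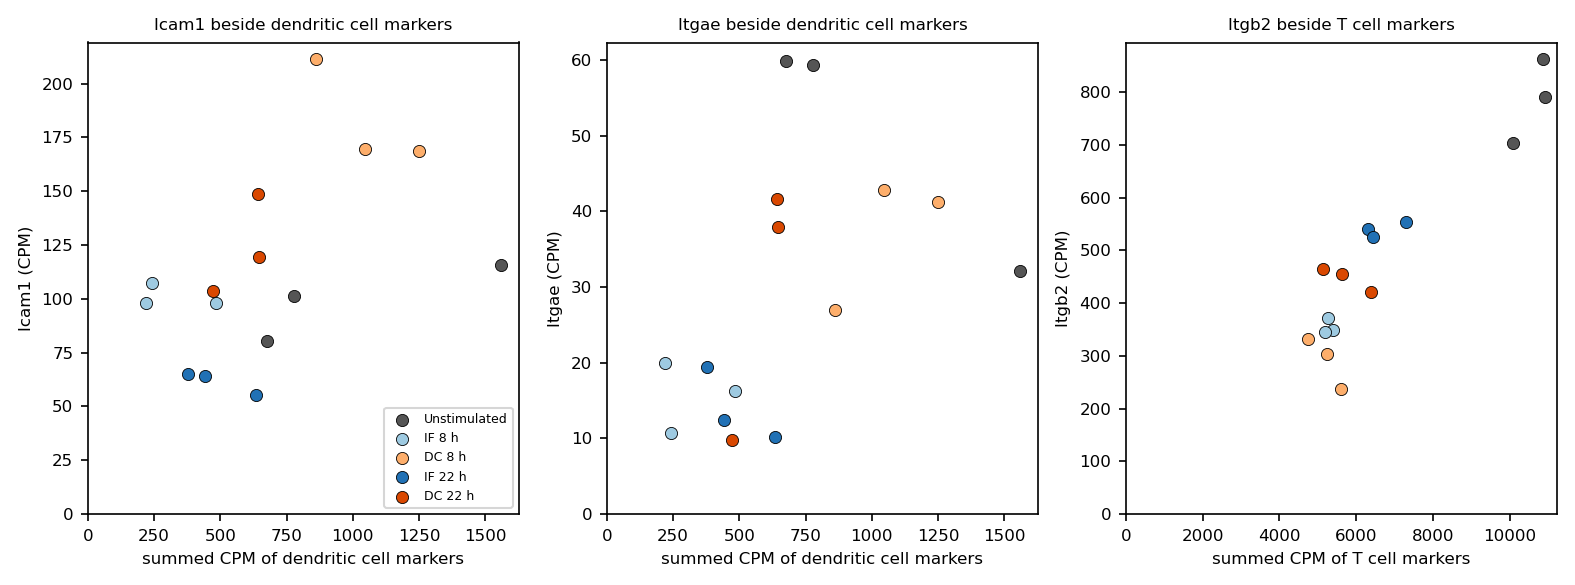
Icam1 and Itgae (CPM) against the summed CPM of 21 dendritic cell markers, and Itgb2 against the summed CPM of 9 T cell markers, 1 point per library, coloured by group. DC 8 h holds the highest Icam1 values at marker sums of 860 to 1249 CPM, and the unstimulated libraries hold the highest Itgb2 values at T cell marker sums of 10093 to 10923 CPM.

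Cd2 (chr3:101275899-101287939, minus strand) fell in every stimulated group. This immunoglobulin-type receptor binds CD48 and lowers the threshold of T cell receptor signalling. It stood at 907, 1032 and 899 CPM in unstimulated cells, at 486, 587 and 534 CPM in IF 8 h and at 382, 312 and 372 CPM in DC 8 h. At 22 h it was 384, 476 and 415 CPM with immunofilaments and 275, 215 and 295 CPM with dendritic cells. The 12 stimulated libraries all lay below the unstimulated ones, and at each time the DC libraries lay below the IF libraries, though the 8 h difference of Cd2, 0.59, missed the threshold (edgeR adjusted p = 0.107) and passed with DESeq2 alone. Cd2 fell, with a log2 fold change of −0.82 at IF 8 h (SE 0.15, edgeR adjusted p = 0.0037), −1.41 at DC 8 h (SE 0.16, edgeR adjusted p = 4.43e-05), −1.15 at IF 22 h (SE 0.15, edgeR adjusted p = 2.70e-04) and −1.85 at DC 22 h (SE 0.16, edgeR adjusted p = 2.82e-06). All 4 calls held under every alternative.

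Cd44 (chr2:102811141-102901665, minus strand), the hyaluronan receptor, stood at 60.8, 51.3 and 58.4 CPM in unstimulated cells. It stood at 57.1, 30.5 and 63.2 CPM in IF 8 h, at 75.4, 102 and 83.4 CPM in DC 8 h, at 97.2, 105 and 70.0 CPM in IF 22 h and at 51.8, 117 and 55.1 CPM in DC 22 h. DC 8 h and IF 22 h lay wholly above the unstimulated libraries, and in DC 22 h replicate 2 alone did. The log2 fold change of Cd44 was 0.61 at DC 8 h (95% interval −0.02 to 1.25, edgeR adjusted p = 0.258) and 0.67 at IF 22 h (0.04 to 1.31, edgeR adjusted p = 0.213), and neither passed the threshold. It passed at IF 22 h with no filter on low counts (edgeR adjusted p = 0.0491) and with the 2 groups fitted alone (0.0451).

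Immunofilaments and dendritic cells gave different levels of 3 of the 10 transcripts at 22 h and of 1 at 8 h. At 8 h Icam1 was lower with immunofilaments, at a log2 difference of −0.86 (SE 0.18, edgeR adjusted p = 0.0363), beside 0.434% of all tested genes called lower and 0.231% called higher. At 22 h Icam1 was lower with immunofilaments at a log2 difference of −1.01 (SE 0.18, edgeR adjusted p = 0.00521), beside 1.2% of genes called lower. Itgal was higher with immunofilaments at 22 h by 0.75 (SE 0.16, edgeR adjusted p = 0.0165) and Cd2 by 0.70 (SE 0.15, edgeR adjusted p = 0.0221), beside 1.23% of genes called higher. The 3 IF and 3 DC libraries did not overlap for any of these 4 differences. Markers also differed between these groups at 22 h: the NK cell list, of which 3 to 4 of 5 genes were detected, summed to 91.3 to 104.7 CPM with immunofilaments and 32.0 to 50.8 CPM with dendritic cells. Most of that sum was Fcer1g, at 78.6 and 32.7 CPM on average, while Ncr1, a defining NK cell gene, averaged 0.07 CPM with immunofilaments and was at 0 with dendritic cells. The T cell markers summed to 6312 to 7307 CPM with immunofilaments and 5140 to 6388 CPM with dendritic cells. Within that list Cd3e averaged 932 and 555 CPM and Cd8a 557 and 749 CPM. The part of these markers in the Itgal and Cd2 differences was not tested. Itgae was lower with immunofilaments by values that missed the threshold, −1.23 at 8 h (95% interval −2.16 to −0.31, edgeR adjusted p = 0.355) and −1.10 at 22 h (−2.00 to −0.20, edgeR adjusted p = 0.207). Without DC 22 h replicate 2 the 22 h difference of Itgae was −1.52 (edgeR adjusted p = 0.0211), and with no filter on low counts both passed (0.0051 and 0.00597). The dendritic cell markers summed to 219 to 482 CPM in IF 8 h and 860 to 1249 CPM in DC 8 h. Their part in the Itgae differences was not tested. For Itgb2 the difference was 0.29 at 8 h (95% interval −0.01 to 0.59) and 0.27 at 22 h (−0.03 to 0.57), and for Itgb7 −0.14 (−0.61 to 0.34) and 0.15 (−0.31 to 0.62).

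The 8 h difference of Icam1 had an edgeR adjusted p from 0.000841 to 0.137 over its alternatives. It was lost with the replicate block (0.0545), when just those 2 groups were fitted (0.0595), without IF 8 h replicate 1, 2 or 3 (0.129, 0.137 and 0.11) and without DC 8 h replicate 1, 2 or 3 (0.0684, 0.132 and 0.074), with a log2 difference between −0.74 and −0.91 throughout. At 22 h all 3 differences were lost with both groups fitted alone (edgeR adjusted p = 0.072 for Icam1, 0.115 for Itgal and 0.201 for Cd2) and without IF 22 h replicates 2 and 3 together (0.365, 0.712 and 0.682, at log2 differences of −0.93, 0.55 and 0.55). That of Itgal was also lost without IF 22 h replicate 2 (0.105) or 3 (0.0622) or DC 22 h replicate 1 (0.0682), and that of Cd2 without IF 22 h replicate 2 (0.126) or 3 (0.0733) or DC 22 h replicate 1 (0.0627) or 2 (0.0576). Over the alternatives the edgeR adjusted p of Itgal ranged from 0.000147 to 0.712, that of Cd2 from 0.000681 to 0.682 and that of Icam1 from 4.32e-06 to 0.365.

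**Figure D4:**
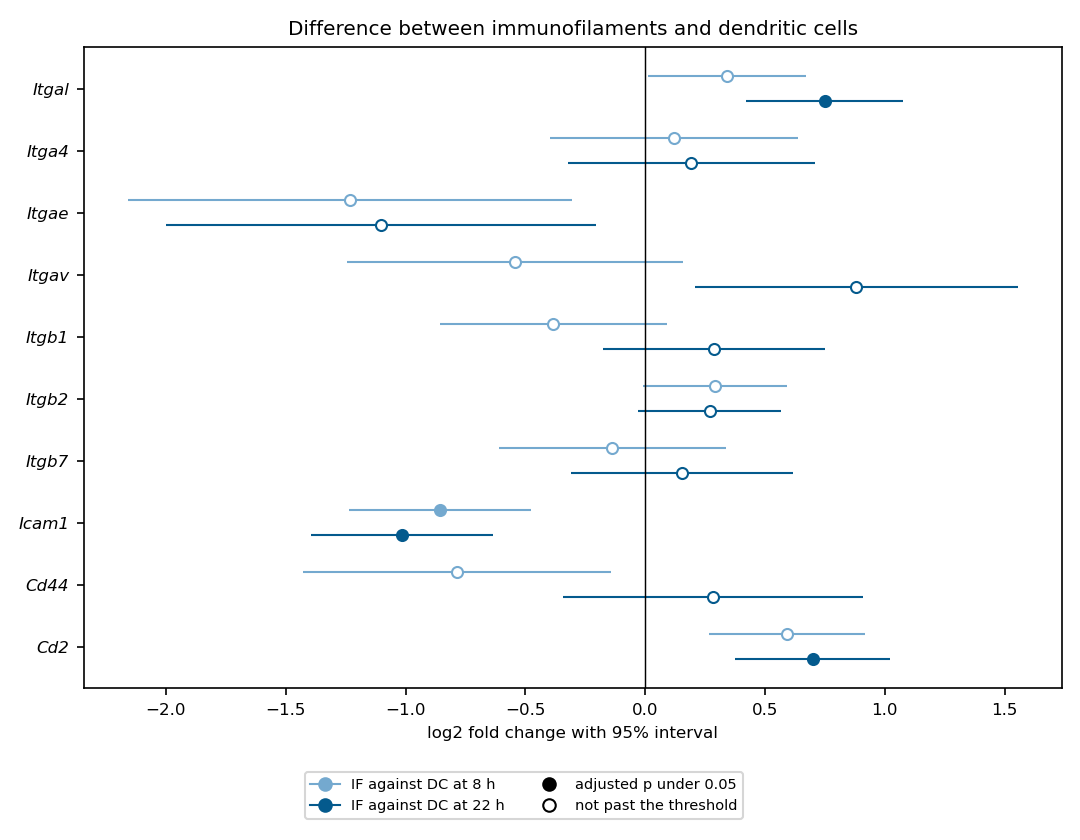
Log2 difference between IF and DC cells for each transcript at 8 h and at 22 h with its 95% interval; values above 0 are higher with immunofilaments, and filled points have an adjusted p under 0.05. Icam1 lies below 0 at both times, at −0.86 and −1.01, and Itgal and Cd2 lie above 0 with filled points at 22 h, at 0.75 and 0.70.

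Between 8 h and 22 h, Itgb7 rose in IF cells by 0.99 on the log2 scale (SE 0.22, edgeR adjusted p = 0.0437), the 1 call among the 10 genes, beside 0.637% of genes called higher and 0.48% called lower. This call of Itgb7 was lost without IF 8 h replicate 1, 2 or 3 (edgeR adjusted p = 0.101, 0.0982 and 0.178), without IF 22 h replicate 2 or 3 (0.189 and 0.123) and without both (0.69), and its adjusted p ranged from 0.000458 to 0.69 over all alternatives. Itgb2 and Itgal came close in IF cells, at 0.60 and 0.63 (edgeR adjusted p = 0.0519 and 0.0619), as did Icam1 at −0.72 (edgeR adjusted p = 0.0662). In DC cells edgeR called 0 of the 10 genes between the times, with 4 at an unadjusted p under 0.05 and 1 by DESeq2, beside 0.48% of all genes called in either direction. Among these Itgb2 had the smallest adjusted p, at a log2 fold change of 0.62 (SE 0.14, edgeR adjusted p = 0.0693). Same-numbered DC libraries deviated together, and with the DC groups fitted alone with the replicate number as a block, Itgb2 (0.62, edgeR adjusted p = 0.0294) and Itgb7 (0.72, edgeR adjusted p = 0.0319) passed, beside 1.89% of all genes in that fit. The test of whether the IF-DC difference itself changed with time called 0 of the 10 genes by edgeR and by DESeq2, beside 0% of all genes by edgeR and 0.369% (40 genes) by DESeq2, with 3 at an unadjusted p under 0.05: Itgav, Cd44 and Itgb1. Their log2 changes of the difference were 1.43, 1.07 and 0.67 (edgeR adjusted p = 0.466, 0.543 and 0.621).

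Genes that act around these receptors were counted from lists of pathway genes, some of which passed the low-count filter (1.26 CPM) in part of the groups only. Above that level in every library were 33 of 36 tested inside-out genes, 32 of 39 outside-in genes, 8 of 11 ligands, 18 of 22 relatives of CD2, 15 of 21 genes around CD44 and 11 of 14 tetraspanins. Inside-out activation is the route by which T cell receptor signals, through the small GTPase Rap1 and the adaptors that reach talin, open an integrin. Of its 36 tested genes, 8 fell with IF and 7 with DC at 8 h, 4 and 8 did so at 22 h, and 0 rose by edgeR with TMM scaling in any of the 4 comparisons, with 1, 0, 1 and 0 higher at an unadjusted p under 0.05. Over all genes 4.72%, 4.07%, 3.44% and 4.35% were called lower and 3.04%, 2.75%, 2.63% and 3.41% higher, in that order, shares that correspond to 1 or 2 of 36 genes. Among genes with a mean of at least 10 CPM, 11.1%, 9.67%, 7.77% and 10.9% were called in either direction. Over all tested genes this was 7.76%, 6.82%, 6.08% and 7.76%. The lists were chosen with earlier results of these data known, so their counts are not a test of the lists. Scaled by library size alone, 4 and 3 of the 36 genes fell at 8 h. At 22 h 3 and 2 then fell, and 1 rose in each comparison. The median log2 fold change of the list was −0.34, −0.27, −0.26 and −0.36 in that order. Rasgrp2, the exchange factor that loads Rap1, fell from 140.1 ± 7.08 CPM (SD, n = 3) in unstimulated cells to between 36.1 and 43.4 CPM in the stimulated groups, with log2 fold changes of −1.97, −1.75, −1.69 and −1.85 in the order above (edgeR adjusted p = 8.08e-05, 1.91e-04, 2.91e-04 and 1.81e-04). Flna, a filamin that competes with talin for the β chain tail, fell likewise (−1.51, −1.45, −0.87 and −1.54), with its IF 22 h call lost without replicates 2 and 3 of that group (edgeR adjusted p = 0.163). Tln1, talin, which binds the β tail and opens the integrin, fell at 8 h (−1.0 with IF and −0.80 with DC) and at DC 22 h (−0.85), and was −0.47 at IF 22 h (edgeR adjusted p = 0.139). Both DC calls of Tln1 were lost with library size alone, at −0.53 at 8 h (edgeR adjusted p = 0.066) and −0.52 at 22 h (0.0578). Cytip, which controls the cytohesins, was also called at IF 22 h (−0.89), and not without that pair (edgeR adjusted p = 0.188).

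Outside-in signalling and plaque genes act after ligand binding. Of 39 tested, 5 fell at IF 8 h, 7 at DC 8 h and 9 at DC 22 h, and at IF 22 h 1 rose and 0 fell by edgeR, with 7 lower at an unadjusted p under 0.05. The shares of all genes called lower, 4.72%, 4.07% and 4.35% at IF 8 h, DC 8 h and DC 22 h and 3.44% at IF 22 h, correspond to 1 or 2 of 39 genes, and the 2.63% called higher at IF 22 h to 1. The list median was −0.24 and −0.27 at 8 h and −0.13 and −0.27 at 22 h, for IF and DC in that order here and for the lists below. Scaling by library size alone gave 3 lower and 1 higher at IF 8 h and 5 lower and 1 higher at DC 8 h. At 22 h it gave 0 lower and 2 higher with IF and 2 lower and 2 higher with DC. Without the filter on low counts, 4 fell and 2 rose at IF 22 h. The gene that rose was Lpxn, a paxillin relative of blood cells (0.70 at IF 22 h), which also rose at DC 8 h (0.80). The IF 22 h call of Lpxn was lost without unstimulated replicate 2 (edgeR adjusted p = 0.0792) or 3 (0.0597), IF 22 h replicate 2 (0.0867), or IF 22 h replicates 2 and 3 as a pair (0.237). Ptk2b, the kinase Pyk2, stood at 377 ± 37.8 CPM in unstimulated, 356 ± 31.5 in IF 8 h, 191 ± 45.3 in DC 8 h, 342 ± 25.6 in IF 22 h and 203 ± 7.55 in DC 22 h (SD, n = 3 each). It fell with dendritic cells, with log2 fold changes of −0.98 at 8 h and −0.89 at 22 h, and was higher with immunofilaments than with dendritic cells by 0.90 at 8 h and 0.75 at 22 h (edgeR adjusted p = 0.0182 and 0.0239). The 8 h difference of Ptk2b was lost with both groups fitted alone (0.0901 by edgeR), without IF 8 h replicate 1 (0.0872) or 3 (0.0626) and without DC 8 h replicate 2 (0.0649) or 3 (0.0538). Its 22 h difference was lost with library size alone (0.0567), with both groups fitted alone (0.1) and on leaving out any of 4 single libraries (0.0538 to 0.0935). Without IF 22 h replicates 2 and 3 as a pair its adjusted p was 0.265 by edgeR. The kinase Fyn fell with dendritic cells at 8 h (−0.75). Its 22 h value of −0.46 was called, but not with library size alone (−0.13, edgeR adjusted p = 0.543), no filter on low counts (0.199), the replicate block (0.0606) or both groups fitted alone (0.153). Rac2, a small GTPase of blood cells, fell at IF 8 h (−1.18), DC 8 h (−0.91) and DC 22 h (−0.72, or −0.39 with an edgeR adjusted p of 0.162 with library size alone), and Tns1, a tensin, fell at DC 8 h (−2.10).

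Of 11 tested ligands and counter-receptors, 5 fell at IF 8 h and 4 in each of the other comparisons with unstimulated cells, and 0 rose by edgeR with TMM scaling and the filter on low counts, with 1, 2, 1 and 2 higher at an unadjusted p under 0.05. With no filter 1 rose at DC 8 h and 1 at DC 22 h, and with library size alone 1 rose at DC 22 h. Of all genes, 3.44% to 4.72% were called lower and 2.63% to 3.41% higher in the 4 comparisons. The list median was −0.80 and −0.54 at 8 h and −0.59 and −0.46 at 22 h. Lgals1, galectin-1, fell from 314 ± 31.1 CPM (SD, n = 3) to 49.4 ± 7.95 CPM in IF 8 h and 58.8 ± 9.28 CPM in DC 8 h. At 22 h it was 144 ± 25.7 CPM with immunofilaments and 68.8 ± 3.14 CPM with dendritic cells, a log2 difference of 1.07 (edgeR adjusted p = 0.00327), which was lost with both groups fitted alone (0.056) and without IF 22 h replicates 2 and 3 as a pair (0.38, at 0.76). Thy1, a T cell surface protein that binds integrins, fell in all 4 groups (−1.51, −1.14, −0.87 and −1.12), as did Lgals9, galectin-9 (−1.39, −0.90, −0.98 and −1.04). Cd48, the ligand of CD2, fell at 8 h (−0.98 with IF and −0.83 with DC) and at DC 22 h (−0.69), and was −0.59 at IF 22 h (edgeR adjusted p = 0.058). Its calls at DC 8 h (−0.57, edgeR adjusted p = 0.0522) and DC 22 h (−0.36, 0.165) were lost with library size alone. Cd47, the ligand of SIRPα, fell at both times with immunofilaments (−0.80 and −0.93). Its 8 h call was lost with library size alone (edgeR adjusted p = 0.0725) and on leaving out any of 3 single libraries (0.0644 to 0.0667), and its 22 h call without IF 22 h replicates 2 and 3 as a pair (0.218).

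Of 22 tested CD2, SLAM and other immunoglobulin-type receptors, 2 rose and 1 fell at IF 8 h, 1 rose and 6 fell at DC 8 h, 3 rose and 0 fell at IF 22 h, and 0 rose and 2 fell at DC 22 h, with 5 lower at IF 22 h and 2 higher at DC 22 h at an unadjusted p under 0.05. Over all genes 2.63% to 3.41% were called higher and 3.44% to 4.72% lower. Those shares correspond to about 1 gene of such a list in each direction. The 3 that rose at IF 22 h are not read against them, because Alcam among these was tested through the groups where it is high. Scaling by library size alone, or leaving out the filter on low counts, gave 4 higher at 8 h with immunofilaments, and at 22 h 5 with immunofilaments and 2 with dendritic cells. The list median was 0.08 and −0.16 at 8 h and 0.12 and −0.11 at 22 h. Crtam, a receptor of activated cytotoxic T cells, rose by 2.44 at IF 8 h and 2.93 at IF 22 h and stood at 38.2 ± 31.7 CPM and 31.4 ± 21.7 CPM (SD, n = 3) in the DC groups, against 15.6 ± 6.85 CPM in unstimulated cells. Its calls were lost without unstimulated replicate 3 at IF 8 h (edgeR adjusted p = 0.0544) and without IF 22 h replicates 2 and 3 as a pair at IF 22 h (0.0657). Cd5 and Cd6, scavenger-receptor proteins that dampen T cell receptor signals, fell with dendritic cells, Cd5 with log2 fold changes of −0.89 and −1.07 and Cd6 with −0.76 and −0.92. Cd200, an inhibitory ligand, rose at IF 8 h (2.24), DC 8 h (3.04) and IF 22 h (2.53), and Alcam, the ligand of CD6, was called higher at IF 22 h (4.24). Alcam had 0 to 7 counts per unstimulated library, with 1 of these 3 at the level the low-count filter asks for. Without IF 22 h replicates 2 and 3 as a pair the IF 22 h calls of Cd200 and Alcam were lost (edgeR adjusted p = 0.291 and 0.257). On leaving out single libraries that of Cd200 was lost in 2 cases (0.0525 and 0.0598) and that of Alcam in 4 (0.0614 to 0.1). At IF 8 h the call of Cd200 was lost on leaving out any of 5 single libraries (0.0541 to 0.11). Cd5 was higher with immunofilaments than with dendritic cells by 0.97 at 8 h and 0.82 at 22 h (edgeR adjusted p = 0.00914 and 0.0127). The 8 h difference was lost without DC 8 h replicate 2 (0.0521), and the 22 h difference with both groups fitted alone (0.152), without IF 22 h replicate 2 (0.0522) or 3 (0.0622), and without both (0.365). Cd226, a receptor for nectin-like ligands that associates with LFA-1, fell at 8 h, with −1.55 for IF and −1.04 for DC.

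Around CD44, 21 genes of its partners, the selectins and mucins were tested, and 2, 3, 2 and 2 rose and 2, 1, 0 and 4 fell at IF 8 h, DC 8 h, IF 22 h and DC 22 h, with 2 lower at IF 22 h at an unadjusted p under 0.05. Over all genes 4.72%, 4.07%, 3.44% and 4.35% were called lower, in that order. The genes that rose were Hyal2 and Selp in each comparison and Adam8 at DC 8 h (2.58), a protease chosen after its values were seen, whose call was lost on leaving out any of 4 single libraries (edgeR adjusted p = 0.0546 to 0.0915). Of the 3 unstimulated libraries 0, 1 and 0 reached the filter's level for them, so they were tested through the groups where they are high, and the counts of genes that rose are not read against all genes. With library size alone, 4 rose and 0 fell in each 8 h comparison, and 7 rose and 1 fell at DC 22 h. The list median was −0.15 and −0.06 at 8 h and 0.00 and −0.16 at 22 h. Hyal2, a hyaluronidase, averaged 0.804 ± 0.556 CPM (SD, n = 3) in unstimulated cells, on 2 to 6 counts per library, and between 4.39 and 6.73 CPM in the stimulated groups. It was called higher in all 4. No unstimulated library reached the 1.26 CPM that the low-count filter asks for. Hyal2 was thus tested only because the stimulated groups were high, which fixes the direction. Its call was lost at IF 22 h without replicates 2 and 3 of that group (edgeR adjusted p = 0.141), at IF 8 h with both groups fitted alone (0.0697) or without unstimulated replicate 1 (0.0626) or 2 (0.0521), and at DC 22 h with both groups fitted alone (0.0691). The same holds for Selp, P-selectin, a protein best known from platelets and endothelium, which averaged 0.58 ± 0.764 CPM in unstimulated cells, on 0 to 8 counts per library with 1 of 3 above that level, and between 3.30 and 11.3 CPM in the stimulated groups. Its IF 22 h call was lost with both groups fitted alone (edgeR adjusted p = 0.151). It was also lost on leaving out any of 5 single libraries (0.0528 to 0.164 by edgeR) and without IF 22 h replicates 2 and 3 as a pair (0.101). Spn, the sialomucin CD43, fell with dendritic cells (−0.63 and −1.0) and was higher with immunofilaments at 22 h by 0.84 (edgeR adjusted p = 0.0145). That difference was lost with both groups fitted alone (0.12), without IF 22 h replicate 2 (0.0555) or 3 (0.0668), and without both (0.399), and the DC 8 h call of Spn with library size alone (−0.37, edgeR adjusted p = 0.169). Slc9a3r1, which ties membrane proteins to ezrin, fell at IF 8 h (−0.78). At DC 22 h Ezr and Msn, the ezrin and moesin that tie CD44 to actin, fell (−0.62 and −0.59), and not with library size alone (edgeR adjusted p = 0.223 and 0.232) or without any 1 of the 3 unstimulated libraries (0.0578 to 0.109). Of 14 tetraspanins, which organise integrins in the membrane, 1 rose in each of the 4 comparisons and 1 fell at DC 8 h and at IF 22 h, counts near those that the shares over all genes (2.63% to 3.41% higher and 3.44% to 4.72% lower) give for a list of this size. With library size alone 4 rose and 0 fell at DC 8 h, and 2 rose at IF 8 h and at IF 22 h. Cd9 rose by 1.00 and 0.88 with immunofilaments, Tspan3 rose by 1.06 and 0.98 with dendritic cells, Tspan32 fell at DC 8 h (−1.47), and Cd82 fell at IF 22 h (−1.07). Without IF 22 h replicates 2 and 3 as a pair the IF 22 h calls of Cd9 (0.59, edgeR adjusted p = 0.56) and Cd82 (edgeR adjusted p = 0.101) were lost. Leaving out any of 4 single libraries also ended the call of Cd9, at IF 22 h (0.0977 to 0.147) and at IF 8 h (0.0541 to 0.0829). The tetraspanin median was −0.06 and 0.08 at 8 h and 0.38 and −0.17 at 22 h. The filter kept 9 of 20 other integrin subunits, only 2 of them above its level in every library, so no median is given. Itgb3, the β3 chain, fell at DC 8 h (−1.21), and Itgax, the αX chain, which is also a dendritic cell marker, fell at DC 22 h (−1.85), where it stood at 3.95 ± 3.24 CPM against 14.5 ± 1.75 CPM in unstimulated cells. Of 79 calls of the genes that the naming rule took from these lists, 40 were lost under at least 1 alternative, and 0 changed sign. Leaving out a single library also ended the calls against unstimulated cells of Rac2 and Tspan3 at DC 8 h and at DC 22 h, of Tln1, Spn, Tspan32 and Itgb3 at DC 8 h, of Slc9a3r1 at IF 8 h, and of Cd48, Fyn and Itgax at DC 22 h (edgeR adjusted p = 0.0501 to 0.176).

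**Figure D5:**
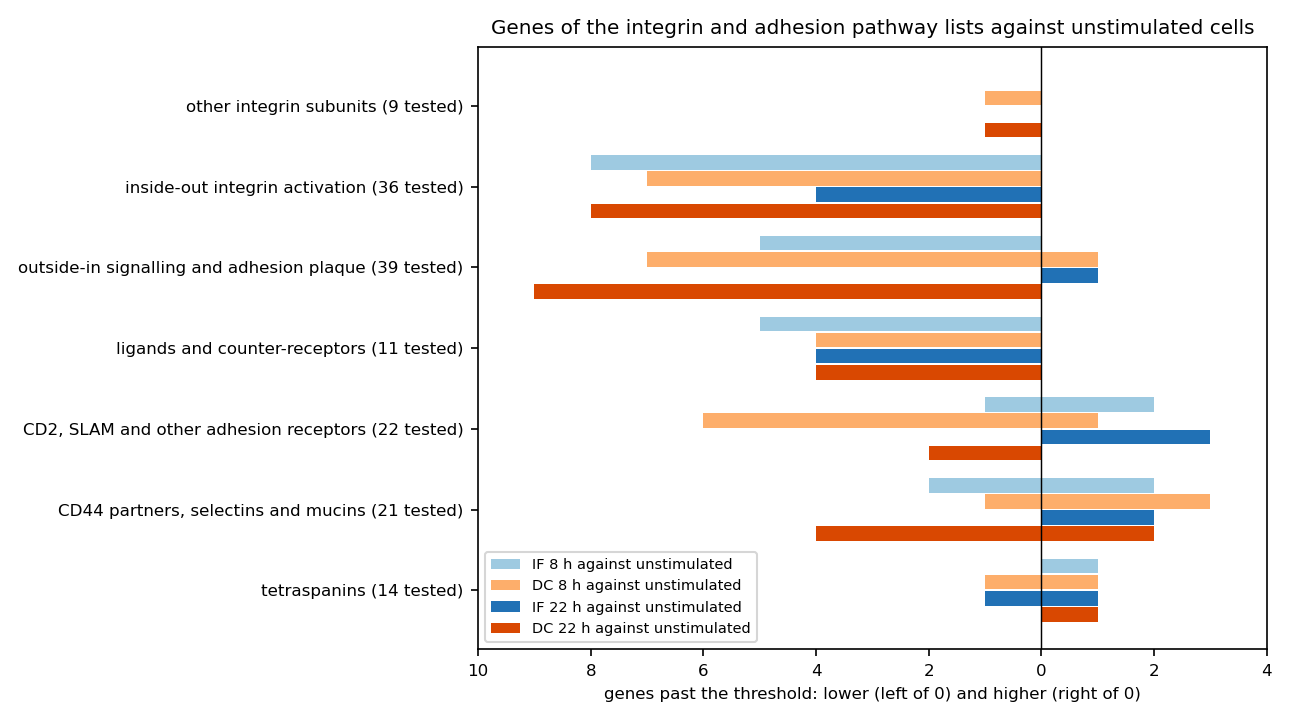
Number of genes past the threshold (adjusted p under 0.05) in each pathway list against unstimulated cells, lower to the left and higher to the right of 0, with the number tested in brackets and 1 bar per stimulated group. The inside-out activation list has 4 to 8 genes lower and 0 higher in each group.

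Over the 15 libraries, partner chains followed each other to different degrees. Pearson's r of log2 CPM was 0.85 for Itgal with Itgb2, 0.46 for Itgae with Itgb7, 0.34 for Itga4 with Itgb7 and −0.20 for Itga4 with Itgb1. After the group means were taken out it was 0.31, 0.63, 0.71 and −0.30. Chains that are not partners also ranged widely over the 15 libraries. Their r was 0.85 for Itgb2 with Itgb7, 0.69 for Itgal with Itgb7 and 0.24 for Itgb1 with Itgb2. With the group means out it was −0.61, −0.31 and 0.48. These points share library depth and the group means, and no p is given. The genes most like each member over the 15 libraries, as r, were Tecr (0.93) and Ptprcap (0.92) for Itgal, Lck (0.91) and Acap1 (0.91) for Itgb2, and Acaa2 (0.97) and Tmem108 (0.97) for Itgb7. For Itgae they were Themis (0.90) and Ltb (0.89), for Itga4 Il7r (0.85) and Gm17745 (0.84), for Itgav Spryd4 (0.86) and Ptms (0.82), and for Itgb1 Zbed4 (0.84) and Mpv17l2 (0.81). For Icam1 they were Nfkbia (0.94) and Batf (0.93), for Cd44 Arl8b (0.84) and Pcbp4 (0.83), and for Cd2 the ribosomal protein genes Rps7 (0.96) and Rpl13 (0.96).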

How the data were processed

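Bulk mRNA was measured in 15 libraries by a form of CEL-seq, where primers with sample barcodes start reverse transcription and pooled cDNA is amplified through RNA, per the labels' protocols. The deposited tables hold raw counts per gene that the authors did not normalise. The submitters' processing notes name BWA and the build mm10, with neither a role nor a version. The counting program, the annotation, and the use of strand and of molecular identifiers are not given in the sources used here.

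Counts were fitted with edgeR 4.0.16 (with limma 3.58.1 in R 4.3.3). Of 17493 genes, 370 had no counts and 10831 passed filterByExpr (minimum count 10, minimum total 15). The filter removed at most 0.124% of the counts of any library. TMM scaling gave factors from 0.857 to 1.11. A single quasi-likelihood model held 5 group means, and 9 comparisons were tested two-sided, with Benjamini-Hochberg adjustment over all tested genes and a threshold of 0.05. Fold changes use edgeR's default prior count, and 95% intervals come from the same fit. CPM are TMM-scaled. Depth differed between the genes: Itgav had 30 to 640 counts per library and Cd2 1770 to 8123. The script was tested on simulated counts.

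The members and lists were chosen with earlier results of these data known. All members are named. In each pathway list up to 4 genes with the smallest p among those past the threshold against unstimulated cells are named, and for each member the 2 most correlated genes. Lpxn, Cytip, Cd47, Cd200, Alcam, Adam8, Ezr and Msn were chosen after their values were seen. The result of 1 gene that the rule names is not reported here. Exon overlaps come from GENCODE vM21 and promoters from RefSeq (GRCm38.p6).

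Replicate numbers are shared by all groups. The correlation of deviations from the group means between same-numbered libraries was 0.116, 0.399 and 0.238 between DC 8 h and DC 22 h, so there the numbers were taken to pair the libraries. In each of the other 7 comparisons of 2 groups all pairs were under 0.1, and the change of the IF-DC difference with time was not checked in this way. Alternatives were other scalings, other filters on low counts, DESeq2 1.42.0, only the groups compared, the replicate block and leaving out each library. The fit of the DC groups alone with the block was added after seeing the data.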

Additional observations from a re-analysis of the deposited data

How the results depend on the processing

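Of 25 called values of the members, 12 kept their call under all alternatives and 0 changed sign. Of 65 values that were not called, 24 changed sign and 12 were called under some alternative. Leaving out single libraries moved the number of members called from 5 to between 3 and 5 at IF 8 h against unstimulated, from 6 to between 1 and 6 at IF 22 h against unstimulated (1 without IF 22 h replicates 2 and 3 together), from 1 to 0 for IF against DC at 8 h, from 3 to between 1 and 3 for IF against DC at 22 h (0 without IF 22 h replicates 2 and 3 together) and from 1 to between 0 and 5 for 22 h against 8 h in IF (0 without replicates 2 and 3 together). Those for DC 8 h and DC 22 h against unstimulated stayed at 5 and 4. With no filter on low counts, IF against DC at 8 h had 2 (1.26% of all genes called, against 0.665% as fitted) and 22 h against 8 h in IF had 6 (2.93%, against 1.12%). With a mean of at least 10 CPM, 22 h against 8 h had 4 in IF (2.16%) and 1 in DC (0.59%). With DESeq2, IF against DC at 8 h had 2 (1.8%), and 22 h against 8 h had 5 in IF (3.38%) and 1 in DC (1.94%). With only the groups compared, IF against DC had 0 at 8 h (0.452%) and 0 at 22 h (0.646%, against 2.43%). With the replicate block, IF against DC at 8 h had 0 and 22 h against 8 h in IF had 2, while the count stayed the same in the other comparisons. With the replicate block and the DC groups alone, 22 h against 8 h in DC had 2 (1.89%, against 0.48%). With library size alone, 22 h against 8 h in DC had 1 (0.582%). The cause was not tested.

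Library size alone also moved the all-gene median log2 change against unstimulated, at 8 h to 0.26 (IF) and 0.30 (DC) and at 22 h to 0.22 (IF) and 0.37 (DC). The share of calls that were higher became 76.3%, 79.6%, 74.1% and 85.4% in that order, against 39.2%, 40.3%, 43.3% and 43.9% with TMM. For IF against DC at 22 h it became 32.8%, against 50.6%, at a median of −0.15. For the change with time of the IF-DC difference, edgeR called 0 of all tested genes, 155 (0.905%) with no filter on low counts and 280 (2.59%) without IF 22 h replicate 1, while leaving out any other single library gave 0 to 3, and DESeq2 called 40 (0.369%).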
